A study of Mus musculus with 6 samples.

Results

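T cell receptor (TCR) signalling was examined through 34 genes for the receptor's CD3 and zeta chains, its costimulators, kinases, adaptors, downstream effectors and inhibitors, listed by symbol. Per gene the array row carrying only that symbol and having the highest mean was taken. A row was found for 33 of them, all 33 were bright enough to be tested, and they were read among 19938 genes with a row, of which 10021 were tested. Lck, the kinase that starts the cascade, had no row under its symbol in the tables used here and was not analysed. No member had a second row.

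The cells were splenic CD8+ T cells (CD8-TC) of ICR mice, labelled male and 6 weeks old, with 3 Runx3+/+ (WT) and 3 Runx3-/- arrays that the methods call biological repeats. All cultures received plate-bound anti-CD3 with soluble anti-CD28 for 2 days and then IL-2 at 100 units per ml for 4 days, so that every array reads cells taken after the receptor stimulus had been withdrawn. All cells were selected on anti-CD8 beads, and only Runx3-/- cells were also sorted by flow cytometry, against CD11c+ dendritic cells before culture and against CD4+CD8- cells after it, so genotype and sorting cannot be told apart. The comparison asks which genes depend on Runx3, a RUNX family factor that shapes cytotoxic T cells, after activation. In such bulk samples, fewer cells of a type and less RNA per cell cannot be told apart.

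When the TCR binds its ligand, Src-family kinases phosphorylate the CD3 and zeta chains, Zap70 docks there and phosphorylates the scaffolds Lat and Lcp2 (SLP-76), and these gather Plcg1, Vav1 and the Grb2-family adaptors. The signal then splits into calcium and NFAT, Ras and MAP kinases, and protein kinase C theta with Bcl10, Malt1 and NF-kappaB. Phosphatases, the kinase Csk, ubiquitin ligases and receptors such as CD5 hold the cascade in check.

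Values are log2 expression, in which 1 unit is a doubling, and differences are Runx3-/- minus WT. Runx3 itself did not separate the groups, at 8.77, 8.26 and 9.16 in WT and 8.91, 9.11 and 9.27 in Runx3-/- (difference 0.37, SE 0.24, adjusted p = 0.521). Which bases the mutation removed is not stated in what was read, so Runx3 RNA is no check of genotype here and the arrays are called KO-labelled. WT1 was labelled male but had Xist at 10.6, against 3.31 to 3.40 elsewhere. On the first principal component (49.6% of the variance) WT2, at -40.3, and KO2, at 42.4, were the extremes, and KO2 was low in cell-cycle genes. Counts are therefore also given without these arrays. Defining T cell markers were bright on every array, with Cd8a between 10.7 and 11.5 and Cd8b1 between 11.3 and 11.9. Of the markers of other cells, 14 of 16 for dendritic cells and macrophages, 7 of 10 for B cells and 3 of 8 for NK cells were dim on every array, at 4.24 or lower.

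As a group, the signalling genes stood slightly higher in KO-labelled cells, but few passed the study's threshold and none of its receptor chains did. Of 33 members, 30 had a difference above 0 and 3 below, with a median of 0.24 (quartiles 0.09 and 0.54) beside a median of -0.01 (quartiles -0.22 and 0.18) over all genes tested. Calls at the study's threshold rest here on p-values from limma and are not the study's own. The study used Partek and also required signal above background. At the threshold of the study's methods (unadjusted p under 0.05 and a change of 1.5-fold or more) 4 members passed and all 4 were higher: Cd5, Sla, Grap and Ubash3a. That is 12.1% of the members, where 3.97% of all genes passed upward. No member passed downward, where 4.33% of all genes did. None passed an adjusted p of 0.05 in limma, which 0.269% of all genes passed upward and 0.359% downward, while 7 members, all higher, had an unadjusted p under 0.05 (background 6.96% upward and 7.14% downward). All 3 KO-labelled arrays lay above all 3 WT arrays for 9 members (27.3%, background 11.6%) and below them for 1, Bcl10 (3.03%, background 10.9%).

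**Figure D1:**
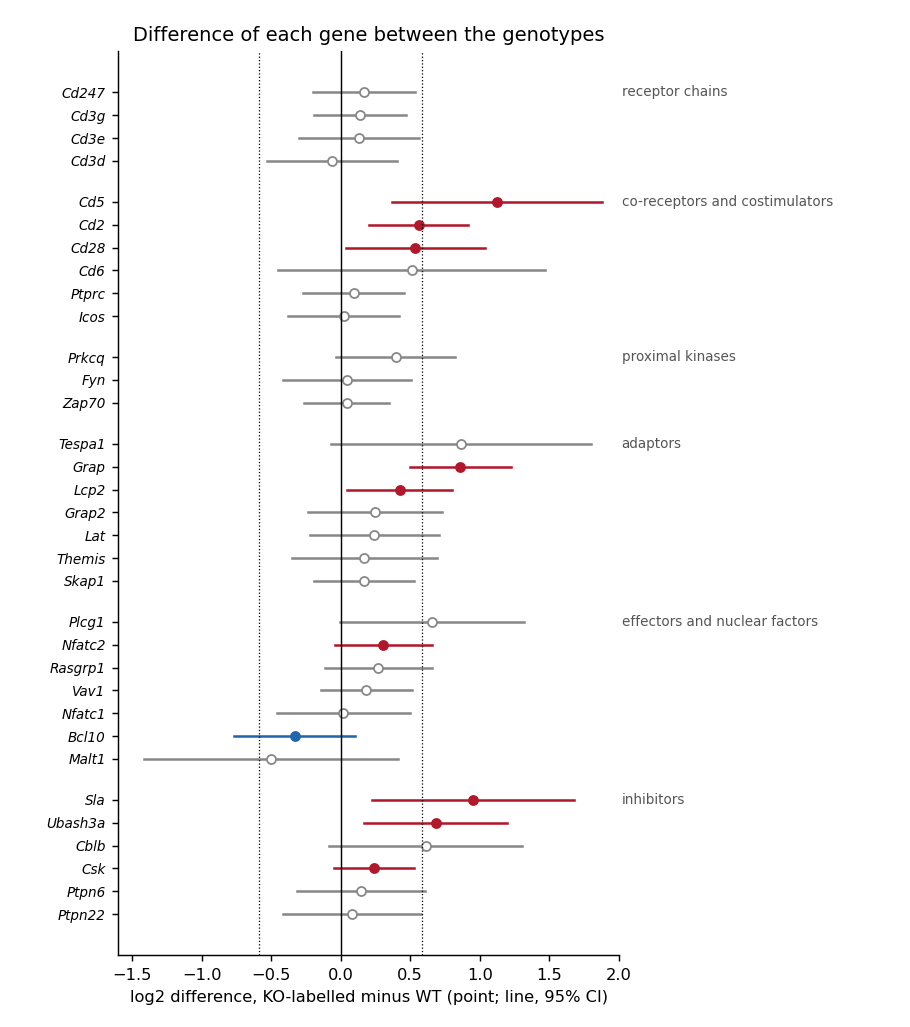
Difference of each member between KO-labelled and WT arrays on the log2 scale, with points for the estimate, lines for the 95% confidence interval of the limma fit (n = 3 per group) and dotted lines at a 1.5-fold change. Filled points are members whose groups did not overlap, red higher and blue lower, and of the 33 members 30 lie to the right of 0, from Cd5 at 1.12 down to Malt1 at -0.50.

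Upstream sequence was read from RefSeq (GRCm38.p6) for the members past the study's threshold that had an entry, Cd5 and Ubash3a, and for Lcp2, since Runx3 acts through the RUNX motif. Of the 6 members without overlap that had an entry, these 3 held a match and are printed for it, while Bcl10, Csk and Nfatc2 held none. The 250 bases before the start site are printed 5′ to 3′ on the gene's strand, with capitals marking a match, on either strand, to the motif TGNGGN in which each N is T or C.

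Cd5, chr19:10738975-10739224, minus strand: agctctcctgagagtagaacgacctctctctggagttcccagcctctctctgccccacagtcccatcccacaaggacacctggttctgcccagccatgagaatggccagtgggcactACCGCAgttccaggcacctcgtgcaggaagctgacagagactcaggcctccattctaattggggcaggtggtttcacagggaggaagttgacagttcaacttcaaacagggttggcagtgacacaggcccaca

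Ubash3a, chr17:31207816-31208065, plus strand: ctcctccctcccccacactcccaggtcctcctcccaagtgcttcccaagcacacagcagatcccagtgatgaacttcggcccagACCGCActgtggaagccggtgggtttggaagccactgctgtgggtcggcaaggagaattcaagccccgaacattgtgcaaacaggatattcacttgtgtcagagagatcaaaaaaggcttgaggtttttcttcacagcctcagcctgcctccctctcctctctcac

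Lcp2, chr11:34046678-34046927, plus strand: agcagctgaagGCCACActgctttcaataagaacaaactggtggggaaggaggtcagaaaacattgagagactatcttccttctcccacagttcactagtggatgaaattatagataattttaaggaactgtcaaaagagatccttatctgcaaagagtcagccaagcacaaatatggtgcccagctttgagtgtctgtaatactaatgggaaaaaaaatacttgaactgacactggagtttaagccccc

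Cd5 and Ubash3a each held 1 match on the opposite strand, TGCGGT when read there, with its first printed base at -133 and -166 from the start. Lcp2 held 1 at -239, also on the opposite strand. Matches that share end bases were counted separately. A match was found for 11 of the 24 listed members with an entry that was used, Lck among them (45.8%), counting any of a gene's start sites. The share was 46.5% for the 8060 tested genes with an entry. Entries on the chromosome of Malt1 and Nfatc1 were left out for the members but not for the 8060 genes. The 2 shares were close, and Fyn and Zap70, whose levels overlapped between the groups, held matches too. These matches are letters in a window and no measure of binding.

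The receptor chains overlapped between the genotypes. Cd3e, which with Cd3d and Cd3g passes the signal through the membrane, read 10.27, 9.87 and 10.38 in WT and 10.24, 10.50 and 10.18 in KO-labelled cells. Cd3d read 10.54, 10.11 and 10.82 against 10.34, 10.49 and 10.45. Cd3g read 11.93, 11.74 and 11.85 against 12.05, 12.06 and 11.82. In each of these 3 genes WT2 was the lowest of the 6 arrays. Cd247, the zeta chain with most of the complex's phosphorylation motifs, read 8.01, 7.98 and 7.82 in WT and 7.97, 8.004 and 8.33 in KO-labelled cells. The differences of the 4 chains ran from -0.06 for Cd3d to 0.17 for Cd247, and their 95% intervals together spanned -0.53 to 0.56, and so stayed within a 1.5-fold change in either direction.

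Among co-receptors and costimulators, Cd5 differed most. Cd5 is a surface receptor that dampens TCR signals and whose level in T cells is known to follow the strength of those signals. It read 8.10, 7.13 and 8.41 in WT and 9.14, 8.96 and 8.92 in KO-labelled cells. The KO-labelled arrays lay close together above all WT arrays, of which WT2 was far below the other 2. The difference was 1.12 (SE 0.32, unadjusted p = 0.00979, adjusted p = 0.216), a 2.18-fold change with a 95% interval of 1.29 to 3.68.

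Cd2, an adhesion and costimulatory receptor, and Cd28, the costimulator engaged in these cultures, were also higher without overlap, just under a 1.5-fold change. Cd2 read 11.26, 10.86 and 11.15 in WT and 11.69, 11.65 and 11.62 in KO-labelled cells (difference 0.56, SE 0.15, unadjusted p = 0.00736, adjusted p = 0.197). Cd28 read 10.04, 9.41 and 10.06 against 10.19, 10.43 and 10.50 (difference 0.54, SE 0.21, unadjusted p = 0.0388, adjusted p = 0.324). For Cd6, a relative of Cd5, the groups overlapped around a single low array, WT2 at 7.23 with the others between 8.37 and 8.95, and the difference was 0.51 (SE 0.41). Icos, the inducible costimulator, and Ptprc, the phosphatase CD45 that keeps Src-family kinases active, stood at 0.02 (95% interval -0.38 to 0.42) and 0.09 (-0.27 to 0.46).

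**Figure D2:**
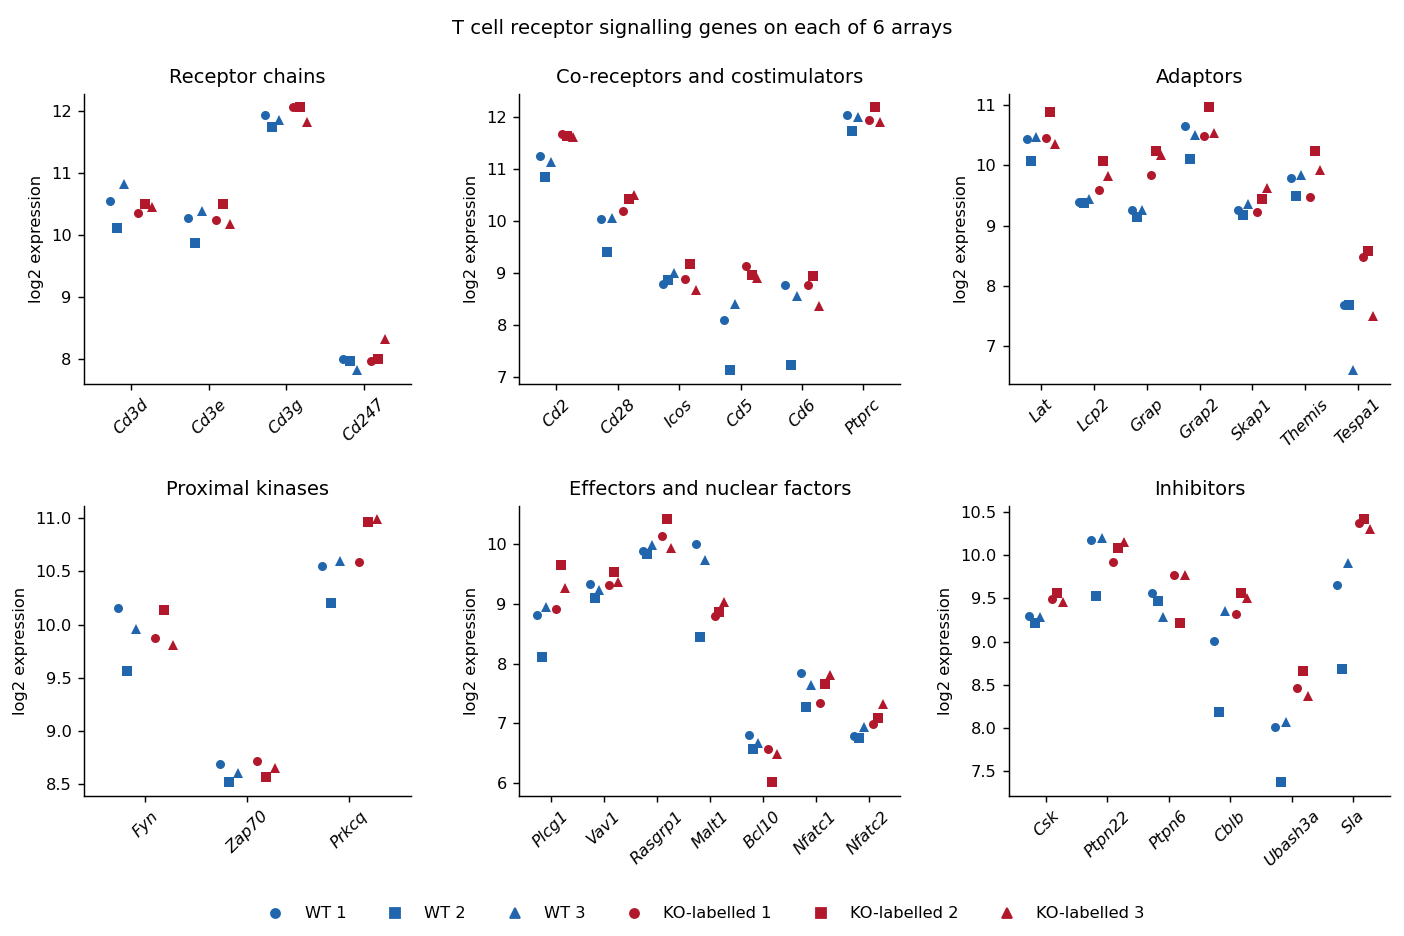
Log2 expression of the 33 members on each array, in a panel per role (blue WT, red KO-labelled; circles, squares and triangles are replicates 1, 2 and 3). Cd5, Cd2, Grap, Sla and Ubash3a have all red points above all blue ones, whereas the receptor chains and Zap70 overlap, and the blue square, WT2, is the lowest point of most members.

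None of the 3 proximal kinases passed the study's threshold. Zap70, the kinase recruited to the phosphorylated chains, was the steadiest of them, at 8.69, 8.52 and 8.61 in WT and 8.72, 8.57 and 8.66 in KO-labelled cells (difference 0.04, 95% interval -0.26 to 0.35). Fyn, a Src-family kinase, stood at 0.05 (SE 0.19). Prkcq, which encodes protein kinase C theta and links the receptor to NF-kappaB, stood at 0.40 (SE 0.18, adjusted p = 0.381), with KO2 and KO3 at 10.96 and 11.00 but KO1, at 10.59, within the WT range of 10.20 to 10.60.

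All 7 adaptors had differences above 0, and Grap had the smallest unadjusted p of all members. Grap is a Grb2-like adaptor that the study names among proliferation inhibitors higher in these cells, so its direction is not independent of that reading. It read 9.26, 9.14 and 9.25 in WT and 9.84, 10.24 and 10.16 in KO-labelled cells, and the gap between the groups exceeded the range within either of them. The difference was 0.86 (SE 0.15, unadjusted p = 0.000774, adjusted p = 0.0711), a 1.82-fold change with a 95% interval of 1.42 to 2.33. Its relative Grap2 (Gads), which couples Lat to Lcp2, overlapped between the groups at 0.25 (SE 0.20).

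Lcp2, the scaffold SLP-76, read 9.39, 9.37 and 9.44 in WT and 9.58, 10.06 and 9.83 in KO-labelled cells. The WT arrays were nearly equal, all KO-labelled arrays were above them, and the difference was 0.42 (SE 0.16, unadjusted p = 0.0324, adjusted p = 0.310). Lat, the membrane scaffold, stood at 0.24 (SE 0.20), Skap1, an adaptor for integrin adhesion, at 0.17 (SE 0.15), and Themis, a regulator of signalling in thymocytes, at 0.17 (SE 0.22), each with overlapping groups. Tespa1, also known from thymocyte development, had a difference of 0.86 with a wide error (SE 0.40, adjusted p = 0.383). WT3 (6.60) lay well below the other WT arrays (7.68 and 7.69), and KO3 (7.51) well below the other KO-labelled ones (8.48 and 8.57). With the replicate number as a block in limma, Tespa1 passed the study's threshold (unadjusted p = 0.00255, adjusted p = 0.241).

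The effectors went in both directions. Plcg1, the phospholipase that makes the calcium and diacylglycerol messengers, read 8.82, 8.12 and 8.95 in WT and 8.92, 9.66 and 9.27 in KO-labelled cells. The difference of 0.66 (SE 0.28, unadjusted p = 0.0516, adjusted p = 0.357) was over 1.5-fold, but KO1 lay below WT3. Rasgrp1, the exchange factor that loads Ras, stood at 0.27 (SE 0.16), and Vav1, the exchange factor for Rac, at 0.18 (SE 0.14). Nfatc2, an NFAT factor switched on by calcineurin, did not overlap between the groups, at 6.79, 6.75 and 6.95 in WT and 6.98, 7.10 and 7.32 in KO-labelled cells. Its difference of 0.31 (SE 0.15, adjusted p = 0.403) was small, and that of Nfatc1, the NFAT factor that feeds back on its own gene, was 0.02 (SE 0.20).

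In the fit of all 6 arrays, Bcl10 and Malt1, partners in the complex that activates NF-kappaB, had the only mean differences below 0 besides Cd3d. Bcl10 read 6.80, 6.57 and 6.67 in WT and 6.57, 6.01 and 6.48 in KO-labelled cells, where WT2 and KO1 all but touched (difference -0.33, SE 0.18, adjusted p = 0.457). Malt1, the paracaspase of the complex, read 10.01, 8.45 and 9.74 in WT and 8.79, 8.87 and 9.03 in KO-labelled cells. WT2 alone stood below the KO-labelled arrays, and the other WT arrays stood well above them. The difference was -0.50 (SE 0.39, adjusted p = 0.578), and without WT2 it was -0.97 (unadjusted p = 0.000978, adjusted p = 0.0990), which passed the study's threshold.

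All 6 inhibitors had differences above 0. Sla, an adaptor (SLAP) that promotes removal of the receptor chains, read 9.65, 8.68 and 9.90 in WT and 10.37, 10.42 and 10.30 in KO-labelled cells. The KO-labelled arrays were nearly equal and above all WT arrays (difference 0.95, SE 0.31, unadjusted p = 0.0172, adjusted p = 0.259), a 1.94-fold change with a 95% interval of 1.17 to 3.21. Ubash3a, a negative regulator (Sts-2) of the same cascade, read 8.01, 7.37 and 8.07 in WT and 8.47, 8.66 and 8.37 in KO-labelled cells. It too was higher on every KO-labelled array (difference 0.68, SE 0.22, unadjusted p = 0.0162, adjusted p = 0.255), by 1.60-fold with a 95% interval of 1.12 to 2.29.

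Csk, the kinase that switches off Src-family kinases, changed little but without overlap, at 9.29, 9.22 and 9.28 in WT and 9.50, 9.56 and 9.45 in KO-labelled cells (difference 0.24, SE 0.12, adjusted p = 0.422). Cblb, a ubiquitin ligase that enforces the need for costimulation, stood at 0.61 (SE 0.29, unadjusted p = 0.0752), with WT2 at 8.19 and the other arrays between 9.01 and 9.56. The phosphatases Ptpn6 (SHP-1) and Ptpn22, which dephosphorylate proximal kinases, stood at 0.15 (SE 0.19) and 0.08 (SE 0.21).

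The members varied together between arrays, and WT2 weighed on most of the differences. WT2 was the lowest array for 27 of 33 members (81.8%), against 28.0% of all genes tested, and KO2 was the highest for 18 (54.5%), against 18.7%. Averaged over the members after subtracting each gene's mean, WT2 stood at -0.43, WT1 and WT3 at -0.00072 and -0.03, and KO1, KO2 and KO3 at 0.08, 0.25 and 0.12. The WT2 shortfall was deepest in the co-receptors and costimulators (-0.67) and the inhibitors (-0.61). The same array had the highest mean of the TCR-induced list (0.54), whose known early targets of the receptor include Cd69, at 9.23 in WT2 and 7.38 and 6.95 in the other WT arrays. The T cell markers that are not members lay within the range of the other arrays in WT2, at 11.49 for Cd8a, 11.58 for Cd8b1 and 10.81 for Thy1. The full list of 9 CD8 T cell markers, which includes members, was lowest in WT2, with a mean of 10.17 against 10.45 to 10.70 on the other arrays. KO2, which was high in members, was at -1.32 for S phase genes and -1.43 for G2/M genes. The G2/M deviation was 0.18, 0.24 and -0.35 in WT and 0.62, -1.43 and 0.73 in KO-labelled arrays, so it varied mainly within the groups. As a covariate it could therefore hardly move the difference between them, and the median difference of the members was then 0.23. The part of the cell cycle in the members' differences was not tested.

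**Figure D3:**
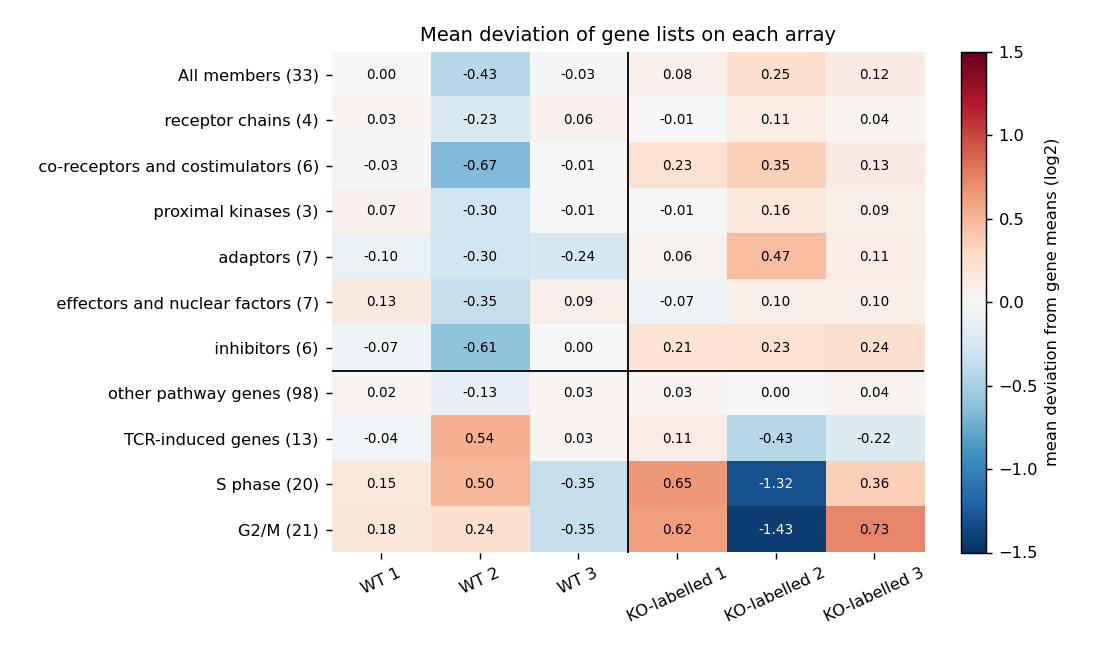
Mean deviation, on each array, of the genes of a list from their own means over the 6 arrays (log2; red above, blue below, number of genes in parentheses), for the members by role and for other lists. WT2 is low in every role (-0.43 over all members) and high in TCR-induced genes (0.54), while KO2 is low in S phase (-1.32) and G2/M genes (-1.43).

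Without WT2 the median difference of the members fell to 0.12, with -0.01 over all genes. Cd5 (0.75), Grap (0.82) and Sla (0.59) still passed the study's threshold, while Ubash3a (0.46), below a 1.5-fold change, did not. These 3 are 9.09% of the members, where 2.44% of all genes passed upward in the same fit, and Malt1 was the 1 member that passed downward (3.03%, background 4.05%). In that fit 9 members lay without overlap upward (background 14.2%) and 4 downward (background 16.6%). Without WT2 and KO2 together, Cd5 (0.77) and Grap (0.75) passed, which is 6.06% against 5.09% of all genes, and Malt1 again passed downward (background 3.7%). Without overlap there were 10 upward (background 26.5%) and 7 downward (background 21.9%). With these 2 arrays left out, the upward share was thus near the background. Leaving out WT1 gave 6 members upward, WT3 gave 8, KO1 gave 6, KO2 gave 4 and KO3 gave 5. Cd5 and Grap passed the study's threshold under every one of these fits, with the difference of Grap between 0.75 and 0.98.

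**Figure D4:**
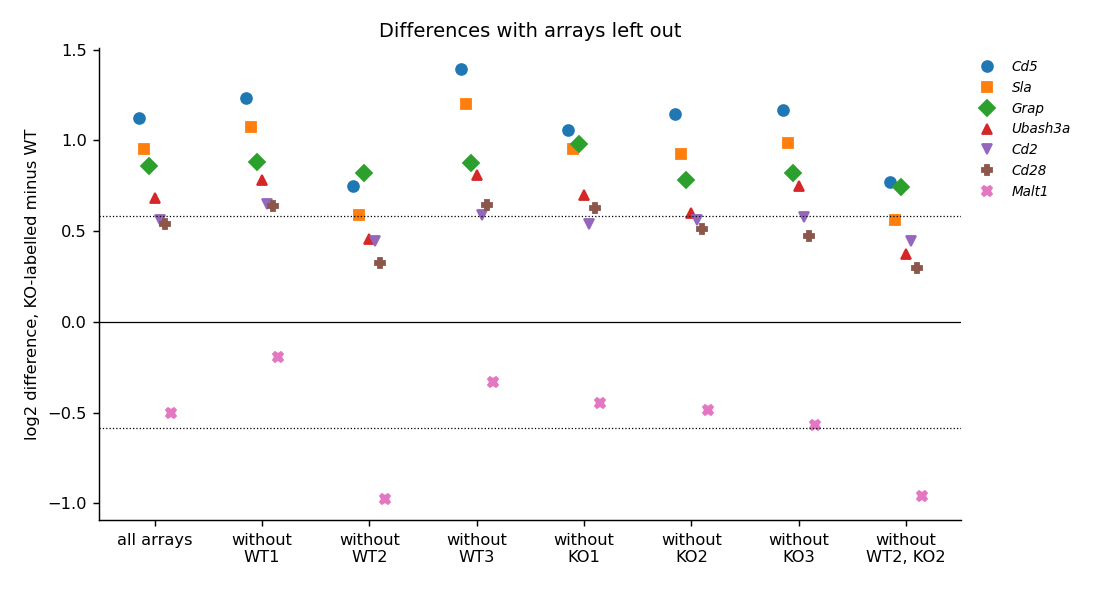
Log2 difference (KO-labelled minus WT) for the 4 members past the study's threshold, for Cd2 and Cd28, and for Malt1 (chosen after its values were seen), with all arrays and with 1 or 2 arrays left out. Dotted lines mark a 1.5-fold change. Grap stays between 0.75 and 0.98, Cd5 and Sla drop without WT2, and Malt1 goes from -0.50 to -0.97.

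Other genes of the pathway were counted in 6 lists, 5 of signalling genes and 1 of TCR-induced genes. Of 117 genes, 98 were tested, 12 passed the study's threshold upward (background 3.97%) and 8 downward (background 4.33%), with a median difference of 0.086 and none past an adjusted p of 0.05 in limma. Among kinases and adaptors (24 tested, 4 higher and 1 lower), the costimulatory receptor Cd226 stood at 1.08 (SE 0.21, adjusted p = 0.0984), the Csk-binding membrane adaptor Pag1 at 1.17 (SE 0.29), the adaptor Fyb at 0.86 (SE 0.26) and Nck2, which links the receptor to actin, at 0.85 (SE 0.17). Lax1, an inhibitory relative of Lat, was lower (-0.72, SE 0.24).

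In the calcium and NFAT branch (14 tested) only Plcg2, the phospholipase used mainly by B cells, passed, downward (-0.92, SE 0.16, adjusted p = 0.0681). In the Ras and MAP kinase branch (12 tested) 3 genes were higher, namely the Ras inhibitor Rasa1 (0.63), the kinase Map3k1 (0.87) and the Jun kinase Mapk9 (0.71). In the NF-kappaB branch (13 tested) the genes that passed were both feedback inhibitors, Nfkbia (0.80, SE 0.15, adjusted p = 0.0853) and Tnfaip3 (0.62, SE 0.22).

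The other genes listed as inhibitors (22 tested) did not share the direction of the 6 above, with 3 higher, 3 lower and a median of -0.02. This count leaves out inhibitory genes kept in other lists, such as Rasa1, Nfkbia and Tnfaip3, which were higher, and Lax1, which was lower. WT2 deviated by -0.61 in the 6 and by -0.07 in the 22, and its part in the contrast was not tested. Higher were the inhibitory receptor Btla (0.90, SE 0.16, adjusted p = 0.0748), the diacylglycerol kinase Dgka (0.91, SE 0.29) and the ubiquitin ligase Cbl (0.65, SE 0.24). Lower were the phosphatase Ptprj (-1.47, SE 0.31), the ubiquitin ligase Nedd4 (-1.41, SE 0.50) and Sla2 (-1.11, SE 0.36), the close relative of Sla. Sla2 read 9.34, 8.51 and 9.13 in WT and 7.15, 8.41 and 8.09 in KO-labelled cells, so Sla and Sla2 stood in opposite directions, both without overlap.

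Genes that the receptor is known to induce were not higher as a group, with 5 differences above 0, 8 below and a median of -0.15. Of 13 tested, none passed upward and 3 passed downward: Tnfrsf9, the costimulator 4-1BB (-3.20, SE 0.55, adjusted p = 0.0677), the growth regulator Myc (-0.93, SE 0.20) and Irf4, a factor whose level follows TCR signal strength (-1.02, SE 0.33). Tnfrsf9 and Myc are named by the study for these cells. WT2 had the highest mean of this list (0.54). For Cd69 the arrays read 7.38, 9.23 and 6.95 in WT and 8.24, 8.05 and 8.57 in KO-labelled cells. The KO-labelled arrays thus lay above WT1 and WT3 but below WT2. Fos, Fosb, Egr1, Egr2, Nr4a2 and Il2 were dim on every array.

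**Figure D5:**
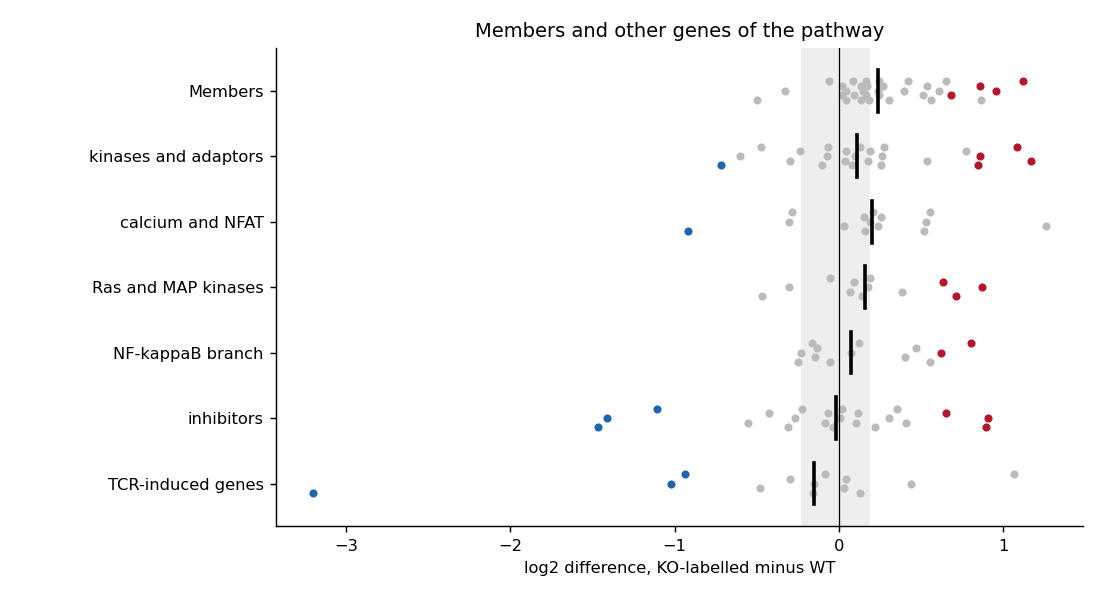
Log2 difference (KO-labelled minus WT) for each tested gene of the members and of 6 other lists (points; red higher and blue lower at the study's threshold, grey not past it), with black bars at the list medians and a grey band for the quartiles over all genes tested. The members' median (0.24) lies right of the band, the other inhibitors centre near 0 (-0.02), and Tnfrsf9 lies farthest left at -3.20.

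Some markers of helper cells moved with genotype, and these markers are given because Cd5, Cd28 and their relatives are expressed in helper as well as cytotoxic T cells. All 5 helper markers had a row, and their mean level ran from 4.88 to 5.14 in WT and from 5.72 to 5.91 in KO-labelled cells. Cd4 stood at 0.95 (SE 0.29, adjusted p = 0.250) and Izumo1r at 2.69, Zbtb7b passed the study's threshold upward too (0.64), Foxp3, the factor of regulatory T cells, stood at -0.32 with overlapping groups, and Cd40lg, the helper-cell ligand, was dim on every array. The study lists Cd4 and Zbtb7b among genes considered Runx3 targets in CD8-TC development, so neither is a marker of helper cells alone. Runx3-/- cells had also been sorted against CD4+CD8- cells, as given above. The mean of 7 NK cell markers with a row ran from 4.92 to 5.10 in WT and from 4.21 to 4.54 in KO-labelled cells. Eomes had the largest difference (-1.76) and read 8.87 to 9.74 in WT. The study also gives Eomes a role in CD8-TC maturation, so it is no marker of NK cells alone. Of 4 tested, Klrb1c passed downward too (-1.56), while Klre1 stood at -0.23 and Itga2 at 0.11. The dendritic cell and macrophage markers had a mean of 3.50 to 3.63 in WT and 3.48 to 3.69 in KO-labelled cells, with Cd74 at 0.80, and the B cell markers 3.74 to 3.83 and 3.70 to 3.95, where of 2 tested Cd79b was lower (-0.93) and Bank1 higher (0.83) at the study's threshold. The part of these markers in the differences of the members was not tested.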

How the data were processed

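Total RNA from WT and Runx3-/- CD8-TC, in 3 samples each, was hybridised to Affymetrix mouse gene ST 1.0 arrays. The authors normalised the scans in Partek Genomics Suite with GC-corrected RMA (robust multichip average), which gave the deposited table of log2 values. Software versions are not given here. Differences of weakly hybridising genes are compressed by RMA. The number of arrays limits the precision.

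Of 35399 rows, 21789 had 1 gene symbol in the platform annotation, 1621 had several and 11989 were not named. Each of 19938 genes was represented by its brightest row on average, and a gene was tested if its highest value reached the table median, 4.26. The 10021 genes were compared with limma 3.58.1 (R 4.3.3; lmFit and eBayes, two-sided, no covariate), with Benjamini-Hochberg adjustment over all of them. SE and 95% intervals are limma's moderated ones. Whether each array holds cells of 1 mouse or of pooled mice is not stated, so p-values measure the spread between these samples. The members, lists and alternatives were chosen with earlier results of these data known. All 34 members were to be named, with values per array for those past the study's threshold, those without overlap and the receptor chains. Up to 6 genes past the study's threshold were named per other list, together with Runx3 and markers. Malt1, Sla2, Cd69 and the other values per array were chosen after they were seen. A further list of pathway genes is not reported here. The fit was tested on simulated data. Figures were drawn with matplotlib 3.10.9.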

Additional observations from a re-analysis of the deposited data

How the results depend on the processing

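The median difference of the members stayed above 0 under every alternative, from 0.11 without WT2 and KO2 together to 0.29, and 0.12 to 0.29 with single arrays left out. The upward count at the study's threshold was 3 to 8 with single arrays left out and 2 without WT2 and KO2 together. The downward count was 0 to 1 and 1 (Malt1). Members without overlap numbered 9 to 15 upward and 1 to 4 downward with single arrays left out. Groups without overlap rose over all genes too, from 2249 with all arrays to between 2769 and 4051. Without WT2 and KO2 together 10 members lay upward (30.3%, background 26.5%) and 7 downward (21.2%, background 21.9%). With array weights in limma, Malt1 passed downward (1 member, where 500 of all genes passed downward). Grap then passed an adjusted p of 0.05 (1 member, adjusted p = 0.0110, where 547 of all genes passed). Its adjusted p was 0.0646 to 0.273 under the other alternatives. Single arrays left out gave 9 to 15 and 7 to 9 other pathway genes upward and downward.

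Over all genes, an adjusted p of 0.05 was passed by 63 genes, by 36 with no filter on dim genes, 547 with array weights, 1 with the replicate number as a block and 9 to 67 with single arrays left out. The study's threshold was then passed by 245 to 514 genes upward and 301 to 744 downward, and groups did not overlap for 2769 to 4051, and for 4852 without WT2 and KO2 together. Upward and downward counts were 398 and 434, 324 and 532 after centring each array on its median over all rows, and 483 and 396 after centring over the tested genes, which was added after seeing the data. The members' count was 4 and 5 in those fits. Blocking by replicate number gave 5 members at the study's threshold, Cd5, Grap, Sla, Ubash3a and Tespa1. Tespa1 read 7.68, 7.69 and 6.60 in WT and 8.48, 8.57 and 7.51 in KO-labelled arrays, in order of replicate number. Deviations of same-numbered arrays correlated at -0.13, -0.37 and -0.13. WT2 and KO2 were opposite extremes of the first principal component, so these correlations cannot decide whether the numbers pair the arrays.

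These members, none past the threshold, changed sign in some settings. Median centring turned Icos (-0.049), Fyn (-0.024), Zap70 (-0.027) and Nfatc1 (-0.050). Array weights turned Cd3e (-0.048), Cd3g (-0.0059), Icos (-0.094), Cd6 (-0.091), Ptprc (-0.065), Fyn (-0.21), Grap2 (-0.00059), Nfatc1 (-0.041) and Ptpn22 (-0.027). Leaving out WT2 and KO2 together turned Cd3e (-0.12), Icos (-0.12), Cd6 (-0.095), Ptprc (-0.092), Fyn (-0.22), Lat (-0.047), Grap2 (-0.060), Themis (-0.12), Nfatc1 (-0.16) and Ptpn22 (-0.15). With single arrays left out, the differences ran, for Icos from -0.11 to 0.14, Cd3e from -0.019 to 0.23, Ptprc from -0.0017 to 0.15, Fyn from -0.12 to 0.18, Zap70 from -0.0021 to 0.085, Nfatc1 from -0.14 to 0.15, Ptpn22 from -0.13 to 0.20, Cd3d from -0.25 to 0.10 and Themis from -0.010 to 0.37. The causes were not tested.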
